A study of Homo sapiens with 12 samples.

Results

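The genes described here are those through which a cell takes up glutamine and related amino acids and moves nitrogen between glutamine, glutamate and aspartate. They are the importers SLC1A5, SLC38A1 and SLC38A2, the exchanger SLC7A5 with its partner SLC3A2, and the enzymes GLUL, GLUD1, GOT1 and GOT2. Their rows were found by the GENCODE symbol of each Ensembl identifier, and all 9 were present among the 60675 genes listed in every library. RNA was sequenced from SUDHL6 and SUDHL16, established human diffuse large B-cell lymphoma (DLBCL) lines that are sensitive to venetoclax (ABT-199), an inhibitor of the anti-apoptotic protein BCL2, and from a resistant line derived from each. There were 3 libraries per group and 12 in all, which are named by their titles because the labels number no replicates. SUDHL6-parental comprised CE-7, CE-8 and CE-9, and SUDHL6-resistant comprised CE-10, CE-11 and CE-12. SUDHL16-parental comprised CE-25, CE-26 and CE-27, and SUDHL16-resistant comprised CE-28, CE-29 and CE-30. The resistant cells were selected over months in rising venetoclax, grew at 10 times the IC50 of the parental cells or more, and were maintained under the drug. For experiments, cells of both kinds were put in fresh medium, and whether it held venetoclax at RNA harvest is not stated. Selection and drug exposure cannot be told apart, and each resistant line is 1 derived line. The study describes translocations of BCL2 and MYC in SUDHL6. Libraries of SUDHL6 came from a NEBNext Ultra II kit and a HiSeq instrument, those of SUDHL16 from an Illumina Stranded Total RNA kit (RiboZero Plus) and a NovaSeq instrument, so line, kit and instrument cannot be told apart.

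Glutamine enters lymphoid cells mainly through sodium-coupled carriers at the plasma membrane. SLC1A5 (ASCT2) trades extracellular glutamine for another neutral amino acid, SLC38A1 (SNAT1) and SLC38A2 (SNAT2) bring it in with sodium, and SLC7A5 (LAT1), which works as a heterodimer with the heavy chain SLC3A2 (4F2hc, CD98), exports intracellular glutamine in exchange for leucine and other large neutral amino acids. Inside the cell glutamine is split to glutamate, glutamine synthetase (GLUL) makes glutamine again from glutamate and ammonia, glutamate dehydrogenase (GLUD1) feeds glutamate into the TCA cycle as 2-oxoglutarate, and the cytosolic (GOT1) and mitochondrial (GOT2) aspartate aminotransferases move its amino group to oxaloacetate to make aspartate. SLC1A5 and SLC7A5 are known targets of MYC, which binds the E-box, and SLC38A2, SLC7A5 and SLC3A2 of ATF4, the transcription factor of the response to amino acid shortage.

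In GENCODE 44 on GRCh38, 8 of the 9 genes lie on the minus strand. GLUD1 spans chr10:87050202-87094843 with 13 exons in its canonical transcript, GLUL chr1:182378098-182392206 with 7, GOT1 chr10:99396870-99430624 with 9 and GOT2 chr16:58707131-58734342 with 10. SLC1A5 spans chr19:46774883-46788594 with 8 exons and SLC7A5 chr16:87830023-87869507 with 10. SLC38A1 at chr12:46183063-46270017, with 17 exons, lies next to SLC38A2 at chr12:46358188-46372773, with 16. SLC3A2, the only gene on the plus strand, spans chr11:62856004-62888880 with 9 exons.

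RefSeq promoter windows (GRCh38.p14, 250 bases before to 50 bases from each annotated start) were given for all 9 genes, 15 windows in all. They were searched on both strands for CACGTG, the E-box, and TGATGNAAN, the C/EBP-ATF response element. Among the 35116 promoters of the same length, 7.26% held the first motif and 3.61% the second. The 6 matches are shown, each with the motif in capitals in 30 bases of the gene's strand, because MYC is known to bind the first and ATF4, with its partners, the second. SLC1A5 held both motifs in different windows, SLC7A5 held the E-box, and GOT1, SLC38A1 and SLC3A2 held the response element.
SLC1A5, chr19:46787326-46787355, minus strand: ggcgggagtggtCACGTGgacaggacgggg
SLC7A5, chr16:87869620-87869649, minus strand: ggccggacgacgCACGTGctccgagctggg
GOT1, chr10:99430804-99430833, minus strand: aattgcattgGTTGCATCAttctcggcagc
SLC1A5, chr19:46784892-46784921, minus strand: aggaagtggcTGATGCAAGctgtccagggt
SLC38A1, chr12:46266501-46266530, minus strand: cagacccgaaTGATGAAAAgggatcagcta
SLC3A2, chr11:62881719-62881748, plus strand: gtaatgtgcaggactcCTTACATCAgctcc
The windows of GLUL, GLUD1, GOT2 and SLC38A2 held neither set of letters, and the match in SLC38A1 spans the annotated start itself.

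The 250 bases before the start are shown for GLUL, whose RNA had the largest difference of the 9 genes, and for SLC38A2, whose RNA was called in both lines. CpG dinucleotides are in capitals. The GLUL stretch (chr1:182391791-182392040, minus strand) holds 25 of them and is 74.8% G or C, and that of SLC38A2 (chr12:46372774-46373023, minus strand) holds 26 and is 73.6% G or C, against medians of 11 and 58% over all promoters. GLUL has another annotated start, whose stretch (chr1:182391342-182391591, minus strand) is not shown and holds 22 CpG at 71.2% G or C.
GLUL: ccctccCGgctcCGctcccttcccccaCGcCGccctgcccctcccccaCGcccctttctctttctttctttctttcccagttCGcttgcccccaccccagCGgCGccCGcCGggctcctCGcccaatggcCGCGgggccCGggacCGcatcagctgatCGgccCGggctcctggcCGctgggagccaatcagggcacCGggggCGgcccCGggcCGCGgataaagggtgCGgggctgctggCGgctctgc
SLC38A2: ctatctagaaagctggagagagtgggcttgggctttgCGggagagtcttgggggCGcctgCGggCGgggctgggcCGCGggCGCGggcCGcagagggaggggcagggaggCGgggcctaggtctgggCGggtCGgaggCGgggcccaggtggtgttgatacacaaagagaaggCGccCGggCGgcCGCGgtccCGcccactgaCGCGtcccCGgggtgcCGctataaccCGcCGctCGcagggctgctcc
The lowest CpG count among the 15 windows was 5, at a start of SLC38A1, and the highest was 41, at GLUD1.

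Library totals were 33992784 to 40885665 reads in SUDHL6 and 4131927 to 22068221 in SUDHL16. CE-26, the smallest, stood apart before any result: 34938 genes had a read in it although it was the shallowest, 31.9% of its reads were on identifiers not found in GENCODE 44 and 55.4% on protein-coding genes, against at most 5.06% and at least 84.3% in the other libraries of both lines. SUDHL16 results are therefore given with and without it. All 4 B-cell markers summed here (MS4A1, CD79A, CD79B, PAX5) were expressed in every group. Their sums were 3349 to 3401 CPM in parental and 3468 to 3490 CPM in resistant SUDHL6 libraries, and 1635 to 2545 CPM in parental and 2694 to 2974 CPM in resistant SUDHL16 libraries, higher in the resistant group of both lines without overlap. The 3 T-cell markers summed to 1.16 to 6.20 CPM in SUDHL16-parental libraries and to 10.8 to 13.4 CPM in SUDHL16-resistant libraries, where CD3E had every read and CD3D and CD2 were at 0. Sums of 3 myeloid markers were at most 6.20 CPM, in SUDHL16-parental libraries, and at most 0.536 CPM in SUDHL16-resistant libraries. The part of these markers in the results was not tested.

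In SUDHL6 the resistant cells had slightly less RNA of the glutamine importers and of SLC7A5, with SLC38A2 the only one of the 9 genes past 1.5-fold. In SUDHL16 the resistant cells had more SLC38A2 and SLC3A2 RNA, and GLUL RNA was almost lost. A gene is said here to have passed with an adjusted p under 0.05 (edgeR quasi-likelihood test, two-sided, Benjamini-Hochberg over all genes tested), and to be called if it also differed at least 1.5-fold. Values are CPM, counts scaled to the size of the library by TMM, and differences are log2 fold changes of resistant over parental with their standard errors (SE). In SUDHL6, 5 of 9 genes passed, against 37.3% of all 16662 genes tested, of which 4 were lower, against 19.7%, and 1 was higher. One gene of 9 was called, against 8.96% of all genes. In SUDHL16, 3 of 9 were called, against 5.30% of the 15708 genes tested, and 2 of these were higher, against 3.20%. Without CE-26, 4 of 9 were called, against 10.0%. The parental and resistant values did not overlap for 6 of 9 genes in SUDHL6, against 47.9% of all genes, and for 5 of 9 in SUDHL16, against 26.6%. The median log2 fold change of the 9 genes was -0.05 in SUDHL6, where that of all genes was 0.00, and 0.64 in SUDHL16, where that of all genes was -0.02.

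The spread between libraries differed between the lines. The biological coefficient of variation over all genes was 0.0516 in SUDHL6, 0.468 in SUDHL16 and 0.339 in SUDHL16 without CE-26. Differences well under 1.5-fold passed in SUDHL6, whereas in SUDHL16 some differences above 2-fold did not pass, such as those of PSAT1 (1.67) and SLC25A11 (1.52 on the log2 scale). No source states that the 3 libraries of a group came from separate cultures, so the p-values measure the spread between these libraries, which may be technical. In bulk RNA, fewer cells that express a gene and less RNA per cell cannot be told apart.

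**Figure D1:**
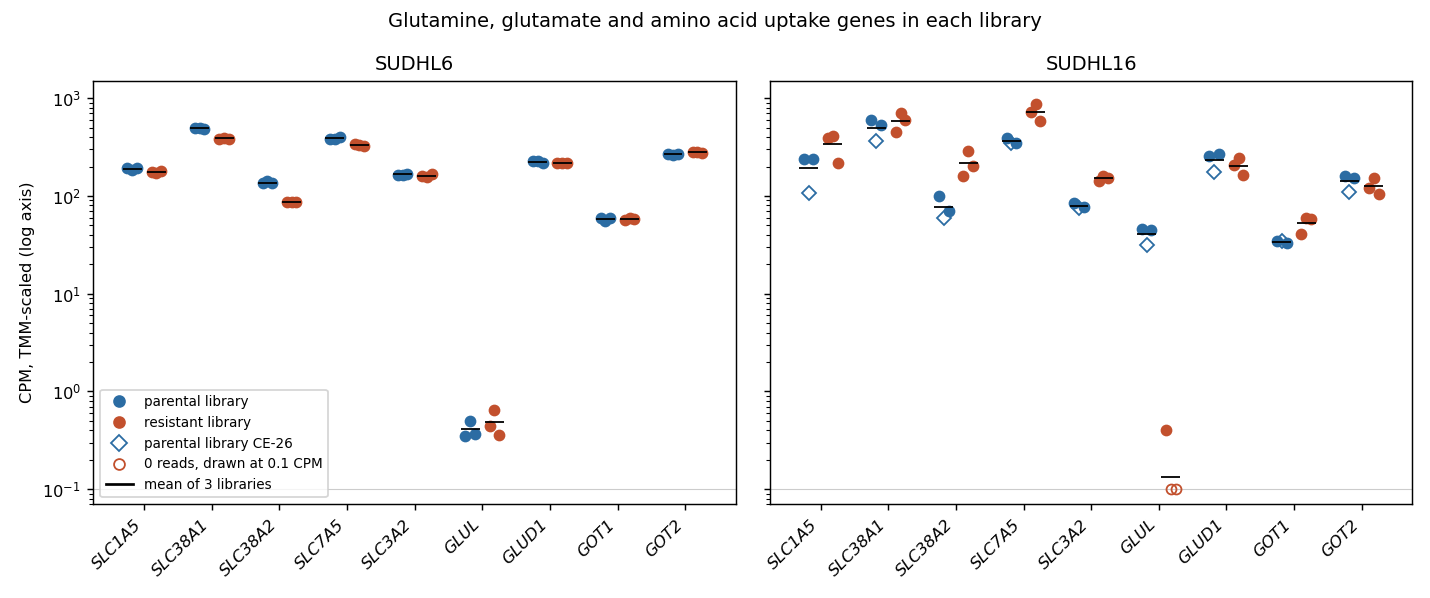
CPM of each of the 9 genes in each library on a log axis, SUDHL6 on the left and SUDHL16 on the right, with parental libraries in blue, resistant libraries in red, CE-26 as an open diamond and a line at the mean of 3 libraries. GLUL stands at 31.3 to 46.0 CPM in the SUDHL16-parental libraries and at 0 to 0.402 CPM in the SUDHL16-resistant ones, while all 6 SUDHL6 libraries lie under 1 CPM.

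SLC38A2, the sodium-coupled importer that cells are known to induce when amino acids run short, went in opposite directions in the lines. In SUDHL6 it measured 135, 142 and 135 CPM in the parental libraries CE-7, CE-8 and CE-9 and 87.2, 86.1 and 87.4 CPM in the resistant libraries CE-10, CE-11 and CE-12. Every resistant library was lower than every parental one, and the gene fell by 0.66 (SE 0.0278, adjusted p = 2.44e-09 by edgeR), 1.58-fold. In SUDHL16 it measured 101, 59.2 and 69.8 CPM in CE-25, CE-26 and CE-27 and 160, 285 and 205 CPM in CE-28, CE-29 and CE-30. Here every resistant library was higher than every parental one, and the gene rose by 1.49 (SE 0.320, adjusted p = 0.0335 by edgeR), 2.82-fold. Without CE-26 the rise was 1.35 (SE 0.301, adjusted p = 0.0265 by edgeR). The call in SUDHL16 was lost when any library other than CE-26 was left out (adjusted p of 0.0556 to 0.155 by edgeR) and with library totals in place of TMM (0.0702), with log2 fold changes of 1.24 to 1.76 in these fits.

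SLC38A1, the second carrier of this family, fell by 0.35 in SUDHL6 (SE 0.0183, adjusted p = 1.59e-08 by edgeR), 1.27-fold and so under the limit for a call. Its 3 parental libraries held 496, 500 and 489 CPM and its 3 resistant libraries 386, 395 and 384 CPM, without overlap. In SUDHL16 its values were 601, 366 and 536 CPM in CE-25, CE-26 and CE-27 and 453, 711 and 600 CPM in CE-28, CE-29 and CE-30. The groups overlapped, and the difference of 0.23 (95% interval -0.50 to 0.96) did not pass (adjusted p = 0.765 by edgeR); without CE-26 it was 0.06.

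The 2 carriers of the family share a sodium-coupled mechanism and lie next to each other, and their ratio within a library needs no scaling between libraries. The ratio was chosen after the values were seen and was not tested. In SUDHL6 the ratio of SLC38A2 to SLC38A1 reads was 0.277 ± 0.00573 in parental and 0.224 ± 0.00496 in resistant libraries (SD, n = 3). In SUDHL16 it was 0.153 ± 0.0203 in parental and 0.365 ± 0.0315 in resistant libraries (SD, n = 3). The groups did not overlap in either line, and CE-26, at 0.162, lay between CE-25 and CE-27.

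SLC1A5, a main entry route of glutamine in many tumour cells, measured 194, 184 and 194 CPM in SUDHL6-parental and 175, 170 and 181 CPM in SUDHL6-resistant libraries. The groups did not overlap, and it fell by 0.12 (SE 0.0288, adjusted p = 0.00503 by edgeR), 1.09-fold. In SUDHL16 it measured 238, 108 and 237 CPM in CE-25, CE-26 and CE-27 and 388, 407 and 215 CPM in CE-28, CE-29 and CE-30. CE-30 lay below CE-25 and CE-27 while CE-28 and CE-29 lay above them, and the difference of 0.79 (95% interval -0.10 to 1.68, adjusted p = 0.324 by edgeR) did not pass. Without CE-26 it was 0.51 (adjusted p = 0.358 by edgeR).

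SLC7A5 and SLC3A2 form the LAT1 transporter. In SUDHL6, SLC7A5 measured 383, 385 and 401 CPM in parental and 342, 331 and 326 CPM in resistant libraries. The groups did not overlap, and it fell by 0.23 (SE 0.0239, adjusted p = 9.54e-06 by edgeR), 1.17-fold. SLC3A2 measured 165, 165 and 168 CPM in parental and 159, 157 and 169 CPM in resistant libraries. Here the groups overlapped, and the difference of -0.04 (95% interval -0.10 to 0.02) did not pass (adjusted p = 0.305 by edgeR).

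In SUDHL16 both chains were higher in every resistant library than in any parental one. SLC7A5 measured 387, 350 and 352 CPM in CE-25, CE-26 and CE-27 and 727, 870 and 589 CPM in CE-28, CE-29 and CE-30, a difference of 1.01 (SE 0.279), 2.01-fold. It did not pass in the main fit of all 6 libraries (adjusted p = 0.0825 by edgeR) and was called without CE-26 (0.99, SE 0.241, adjusted p = 0.0366 by edgeR). With CE-26 kept, SLC7A5 passed in 4 of the 7 other settings of tool, scaling, filter or fit. SLC3A2, the heavy chain that other exchangers such as SLC7A11 also use, measured 85.3, 75.8 and 77.7 CPM in CE-25, CE-26 and CE-27 and 142, 162 and 154 CPM in CE-28, CE-29 and CE-30. It rose by 0.94 (SE 0.214, adjusted p = 0.0420 by edgeR), 1.92-fold, and by 0.92 without CE-26 (SE 0.204, adjusted p = 0.0261). The SLC3A2 call was lost when any library other than CE-26 was left out (adjusted p of 0.121 to 0.177 by edgeR), with library totals (0.134) and with no filter on low counts (0.125).

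The ratio of SLC7A5 to SLC3A2 reads in a library, also chosen after the values were seen and not tested, was 2.34 ± 0.0360 in SUDHL6-parental and 2.07 ± 0.121 in SUDHL6-resistant libraries (SD, n = 3), without overlap. In SUDHL16 it was 4.56 ± 0.0464 in parental and 4.77 ± 0.829 in resistant libraries (SD, n = 3). CE-30, at 3.82, lay below all 3 parental libraries, and CE-28 and CE-29, at 5.11 and 5.38, lay above them.

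**Figure D2:**
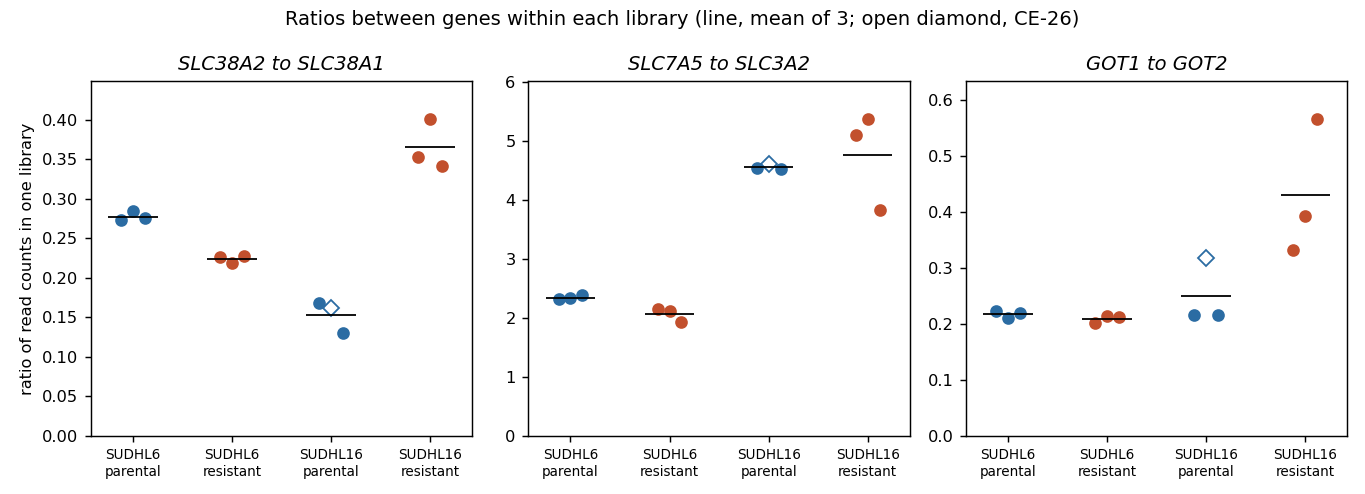
Ratio of the read counts of SLC38A2 to SLC38A1, SLC7A5 to SLC3A2 and GOT1 to GOT2 in each of the 12 libraries by group, each panel with its own linear axis from 0, a line at the mean of 3 libraries and CE-26 as an open diamond. The SLC38A2 to SLC38A1 ratio is lower in resistant than in parental SUDHL6 libraries and higher in resistant than in parental SUDHL16 libraries.

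GLUL, the enzyme that makes glutamine, had the largest difference of the 9 genes. In SUDHL16 it held 834, 91 and 724 reads in CE-25, CE-26 and CE-27, or 46.0, 31.3 and 44.9 CPM, and 6, 0 and 0 reads in CE-28, CE-29 and CE-30, or 0.402, 0 and 0 CPM. The groups were far apart, and the lower value of CE-26 came from 91 reads. Over each group the reads summed to 1649 in parental and 6 in resistant libraries, 44.4 against 0.101 CPM, a ratio of 441 (95% interval 202 to 1205, counting error only). The 0 reads of CE-29 and CE-30 allow up to 0.141 and 0.128 CPM, which is 3 counts of the library. The fitted log2 fold change was -8.48 (SE 0.928, adjusted p = 0.00200 by edgeR) and -8.66 without CE-26 (SE 0.819, adjusted p = 0.000493), and these fitted values depend on the prior count. When CE-28, the only resistant library with a GLUL read, was left out, the fitted value was -12.38, and the gene passed in all of the alternatives (adjusted p of 6.30e-07 to 0.0177).

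In SUDHL6, GLUL was near the floor in both groups. It held 12, 17 and 15 reads in CE-7, CE-8 and CE-9 and 18, 26 and 13 reads in CE-10, CE-11 and CE-12, which is 0.353 to 0.502 CPM in parental and 0.358 to 0.644 CPM in resistant libraries. The groups overlapped, and the difference of 0.25 (95% interval -0.51 to 1.02) was not detectable at this depth (adjusted p = 0.621 by edgeR). CE-28, at 0.402 CPM, lay within the range of these libraries, whereas CE-29 and CE-30 had no read, a comparison that crosses kits and was not tested. The 4 GLUL pseudogenes together held 18 reads over the 6 SUDHL16 libraries and 2 over the 6 SUDHL6 libraries, 1.09% and 1.98% of the GLUL reads. Of the protein-coding genes that start within 1 Mb of GLUL, 5 were tested in SUDHL16, with a median difference of -0.48 and values from -1.78 to 3.29, and 1 of them was called.

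GLUD1, which removes ammonia from glutamate in mitochondria, measured 228, 228 and 218 CPM in SUDHL6-parental and 216, 217 and 218 CPM in SUDHL6-resistant libraries. CE-9 and CE-12 met at 218 CPM, with CE-9 just above, and the difference of -0.05 (95% interval -0.10 to 0.00) did not pass (adjusted p = 0.119 by edgeR). In SUDHL16 it measured 254, 178 and 271 CPM in CE-25, CE-26 and CE-27 and 205, 244 and 164 CPM in CE-28, CE-29 and CE-30, a difference of -0.20 (95% interval -0.84 to 0.45, adjusted p = 0.776 by edgeR). The overlap came from CE-26: without it the groups no longer overlapped, and the difference was -0.35 (95% interval -0.87 to 0.18, adjusted p = 0.427 by edgeR). GLUD1 overlaps SHLD2 on the opposite strand, which held at most 27.2% of its count, and its 5 near-identical copies held 1.92% of its reads in SUDHL6 and 2.31% in SUDHL16.

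The aspartate aminotransferases are the amino group carriers of the malate-aspartate shuttle. GOT2, the mitochondrial enzyme, measured 270, 264 and 271 CPM in SUDHL6-parental and 283, 282 and 276 CPM in SUDHL6-resistant libraries. It was the only one of the 9 genes that passed with a rise in SUDHL6, by 0.07 (SE 0.0202, adjusted p = 0.0234 by edgeR), 1.05-fold. It did not pass when CE-8, CE-10 or CE-11 was left out (adjusted p of 0.0610 to 0.0819 by edgeR). In SUDHL16 it measured 160, 110 and 153 CPM in parental and 122, 152 and 104 CPM in resistant libraries. The groups overlapped through CE-26 only, and the difference of -0.17 (95% interval -0.77 to 0.44) did not pass (adjusted p = 0.802 by edgeR); without CE-26 it was -0.31 (adjusted p = 0.487).

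GOT1, the cytosolic enzyme, measured 60.1, 55.3 and 59.2 CPM in SUDHL6-parental and 56.9, 60.0 and 58.6 CPM in SUDHL6-resistant libraries, an overlap with a difference of 0.01 (95% interval -0.07 to 0.09, adjusted p = 0.910 by edgeR). In SUDHL16 it measured 34.5, 34.8 and 33.0 CPM in CE-25, CE-26 and CE-27 and 40.5, 59.9 and 58.7 CPM in CE-28, CE-29 and CE-30. Every resistant library was above every parental one, but the difference of 0.64 (SE 0.232, 95% interval 0.11 to 1.17) did not pass over all genes (adjusted p = 0.175 by edgeR), nor did it without CE-26 (0.66, adjusted p = 0.135). The ratio of GOT1 to GOT2 reads, chosen after the values were seen and not tested, was 0.217 ± 0.00688 and 0.209 ± 0.00660 in parental and resistant SUDHL6 libraries (SD, n = 3). In SUDHL16 the ratio was 0.249 ± 0.0587 and 0.430 ± 0.121 (SD, n = 3), without overlap, and CE-26, at 0.317, was the highest of the parental libraries.

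**Figure D3:**
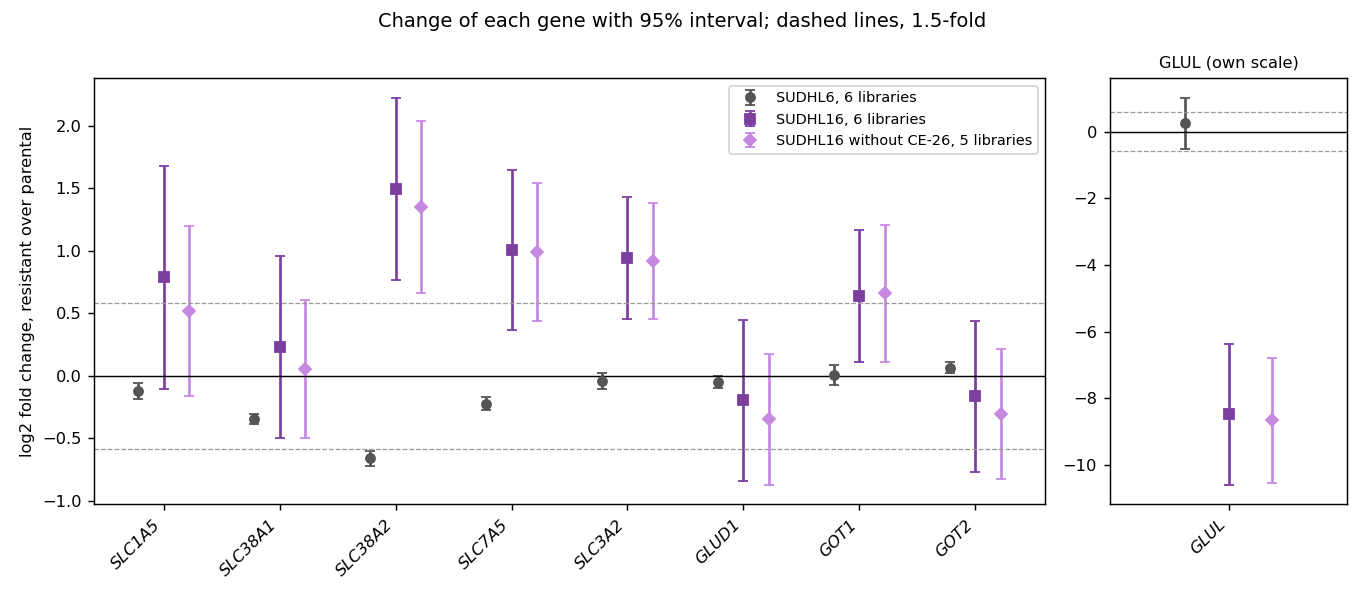
Log2 fold change of resistant over parental with its 95% interval for each gene in SUDHL6 (grey circles), SUDHL16 (dark squares) and SUDHL16 without CE-26 (light diamonds), with GLUL on its own axis and dashed lines at 1.5-fold. SLC38A2 lies at -0.66 in SUDHL6 and at 1.49 in SUDHL16, and the SUDHL16 intervals are wider for every gene.

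An interaction term, in a single model of the 12 libraries, tested whether a gene changed differently in SUDHL16 and SUDHL6. It passed for 4 of the 9 genes, against 7.16% of the 19621 genes tested, and without CE-26 for 4 of 9 again, against 14.0%. SLC38A2 differed by 2.17 on the log2 scale (95% interval 1.39 to 2.96, adjusted p = 0.00313 by edgeR), with a fall in SUDHL6 and a rise in SUDHL16. SLC7A5 differed by 1.26 (0.75 to 1.78, adjusted p = 0.00673), SLC3A2 by 1.01 (0.59 to 1.43, adjusted p = 0.00744) and GLUL by -8.75 (-10.93 to -6.58, adjusted p = 0.000269). Without CE-26 these differences were 1.97, 1.17, 0.92 and -8.99. GLUL stood at only 12 to 26 reads in the SUDHL6 libraries of both groups, where a fall could hardly be seen. Its difference between the lines therefore rests largely on the fall in SUDHL16, and its fitted value and interval depend on the prior count. Both chains of LAT1 passed this test, with SEs of 0.235 for SLC7A5 and 0.192 for SLC3A2. These SEs were below those within SUDHL16 alone (0.279 and 0.214), as was that of GOT1 (0.230 against 0.232). For SLC38A2 (0.357 against 0.320), GLUL, SLC1A5, SLC38A1, GLUD1 and GOT2 the SE of this test was the larger. The cause was not tested. A pass here concerns the difference between the lines and does not strengthen the result within SUDHL16, where SLC7A5 did not pass in the main fit with CE-26. The SLC3A2 difference did not pass with no filter on low counts (adjusted p = 0.0743 by edgeR). The difference did not pass for SLC1A5 (0.91, 95% interval -0.06 to 1.89), GOT1 (0.67, 0.16 to 1.17, adjusted p = 0.113 by edgeR), SLC38A1 (0.60, -0.13 to 1.33), GOT2 (-0.21) or GLUD1 (-0.13).

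That fit estimates 1 spread for both lines. With this shared spread, none of the 9 genes passed in SUDHL6 (adjusted p of 0.602 for SLC38A2), where 0.714% of the 19621 genes tested did. In SUDHL16, 5 of 9 were called, against 14.6% of all genes in this fit, and SLC7A5 and GOT1 were among them (adjusted p of 0.00166 and 0.0183 by edgeR).

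Levels were compared between genes per kilobase of the union of annotated exons. In SUDHL6-parental cells the order was SLC7A5 (81.8 CPM per kb), GOT2 (71.5), SLC1A5 (57.3), SLC38A1 (49.4), SLC3A2 (26), GOT1 (24.0), SLC38A2 (21.1), GLUD1 (15.7) and GLUL (0.0323), and no neighbours in this order overlapped over the 3 libraries. In SUDHL6-resistant cells GOT2 (74.8 CPM per kb) stood above SLC7A5 (69.9), SLC38A2 (13.4) fell to the place below GLUD1 (15.2), and only SLC3A2 and GOT1 overlapped. SLC7A5 again led in SUDHL16-parental cells (76.2 CPM per kb), followed by SLC1A5 (58.4), SLC38A1 (50), GOT2 (37.7), GLUD1 (16.4), GOT1 (14.1), SLC3A2 (12.4), SLC38A2 (11.8) and GLUL (3.22). The ranges of SLC1A5 and SLC38A1, of SLC38A1 and GOT2, of GLUD1 and GOT1, and of SLC3A2 and SLC38A2 overlapped there. In SUDHL16-resistant cells SLC7A5 reached 153 CPM per kb and SLC1A5 101, which overlapped SLC38A1, SLC38A2 stood below GOT2 at 33.3, and GLUL was last at 0.0106. Between SLC38A1 (58.7) and GOT2 (33.6) there was no overlap, while the 5 genes from GOT2 down to GLUD1 (14.3) each overlapped their neighbour. Places depend on the length used: by the canonical transcript alone, GOT2 led in SUDHL6-parental cells (111 CPM per kb), followed by SLC3A2 (88.1) and SLC7A5 (85.5), and GLUD1 moved from the eighth to the fourth place. SLC7A5 led in both groups of SUDHL16 by either length.

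The rest of the pathway was followed in 5 lists with 103 genes, of which 88 were tested in SUDHL6 and 83 in SUDHL16. In SUDHL6, 42 of 88 passed, 17 higher and 25 lower, against 37.3% of all genes tested, and 7 were called, against 8.96%. In SUDHL16, 9 of 83 were called, 8 higher and 1 lower, against 5.30% of all genes. Without CE-26 there were 17, 12 higher and 5 lower, against 10.0%. The small counts of the single lists stand against these same shares. The medians were -0.01 in SUDHL6 and 0.18 in SUDHL16.

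Of 24 glutamine and glutamate enzymes tested in each line, 1 was called in SUDHL6 and 2 in SUDHL16. GLS2, the liver-type glutaminase, fell by 1.31 in SUDHL6 (adjusted p = 0.00916 by edgeR) from 25 to 30 reads per library to 8 to 15. In SUDHL16, ASNS, which uses glutamine to make asparagine, measured 96.1, 64.7 and 74.8 CPM in parental and 203, 354 and 292 CPM in resistant libraries, and rose by 1.85 (SE 0.303, adjusted p = 0.0116 by edgeR). Both groups of ASNS were clearly apart, whereas GPT2, the mitochondrial alanine aminotransferase, was uneven among the parental libraries, at 1.93, 8.27 and 0.683 CPM, against 62.4, 79.9 and 73.2 CPM in the resistant ones. GPT2 rose by 4.70 (SE 0.753, adjusted p = 0.0104 by edgeR), and by 5.77 without CE-26, the parental library with the highest value. Leaving out a library other than CE-26 ended the ASNS call in 3 fits (adjusted p up to 0.0714) and the GPT2 call in 2 (up to 0.0629). In SUDHL6, ASNS and GPT2 stood at 368 and 126 CPM in parental cells, and they fell by 0.09 and 0.18.

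None of the 6 malate-aspartate shuttle and mitochondrial glutamate carrier genes tested was called in either line with all libraries. At an unadjusted p under 0.05 (edgeR) there were 4 in SUDHL6, against 7523 of all 16662 genes tested. In SUDHL16 there were 2, against 3002 of all 15708 genes tested. By edgeR without CE-26, MDH2 and SLC25A11, the enzyme and the 2-oxoglutarate carrier of the shuttle, were called in SUDHL16 at 1.02 and 1.20; they are named because of these values, and the difference between the lines passed for MDH2 (1.05, adjusted p = 0.0359 by edgeR) and not for SLC25A11 (1.48, adjusted p = 0.0749).

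For the other plasma membrane transporters, the difference between the lines passed for 6 of 17 genes, against 7.16% of all genes tested. The change was higher in SUDHL16 for 2 of them and lower for 4. In SUDHL6, 3 of 17 were called, all higher. SLC7A7, a light chain that pairs with SLC3A2 for cationic amino acids, measured 12.1, 11.2 and 11 CPM in parental and 43.5, 42.6 and 44.5 CPM in resistant libraries, and rose by 1.93 (adjusted p = 1.02e-10 by edgeR). SLC7A11, the cystine and glutamate exchanger that also pairs with SLC3A2, rose by 0.62 from 19.9 ± 0.118 to 30.6 ± 0.336 CPM (SD, n = 3), and SLC1A1, a glutamate importer, by 0.91 from 2.44 to 4.6 CPM. In SUDHL16, 3 of 14 were called. SLC6A9, the glycine carrier GLYT1, had 0 reads in the 3 parental libraries and 478, 851 and 682 reads in the resistant ones, at least 417-fold higher against a floor of 3 counts over the group. SLC43A1 (LAT3) rose by 2.21 (adjusted p = 0.00427 by edgeR), from 23.4 ± 7.14 to 110 ± 15.9 CPM (SD, n = 3), while SLC43A2 (LAT4), of the same family of uniporters for large neutral amino acids, fell by 1.44 (adjusted p = 0.0197), from 136 ± 33.1 to 49.9 ± 8.67 CPM (SD, n = 3). The SLC43A2 call was lost in 4 of the 6 fits without a library (adjusted p up to 0.109 by edgeR).

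Of the genes by which mTORC1 senses amino acids, 2 of 30 were called in SUDHL6 and 1 of 29 in SUDHL16. SEH1L, a member of the GATOR2 complex, rose by 0.59 in SUDHL6, just past 1.5-fold, and SESN3 rose by 1.13 from 1.39 to 3.02 CPM. SESN2, the sestrin known as a leucine sensor and as an ATF4 target, measured 25.1, 33.1 and 18.2 CPM in SUDHL16-parental and 78.6, 103 and 99.3 CPM in SUDHL16-resistant libraries, and rose by 1.90 (adjusted p = 0.00670 by edgeR).

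Among 11 genes listed as regulators of the 9 genes, 1 of 11 was called in SUDHL6 and 3 of 10 in SUDHL16. The list includes TXNIP as a gene that responds to MYC and glutamine, and no regulation of the 9 genes by it is claimed. TXNIP, an arrestin known to restrain glucose uptake and to respond to MYC and glutamine, was called in both: it rose by 0.60 in SUDHL6 from 23.7 to 36.1 CPM, and by 4.67 in SUDHL16 from 9.20 ± 0.275 to 235 ± 111 CPM (SD, n = 3). ATF5 rose by 1.77 in SUDHL16 (adjusted p = 0.0219 by edgeR) and HIF1A by 1.38 (adjusted p = 0.0391). The ATF5 call was lost in 5 and the HIF1A call in 4 of the 6 fits without a library (adjusted p up to 0.110 and 0.148 by edgeR). MYC fell by 0.54 in SUDHL6, from 262 ± 1.49 to 180.5 ± 4.82 CPM (SD, n = 3, adjusted p = 3.19e-09 by edgeR), under the limit for a call, and differed by -0.32 in SUDHL16 (adjusted p = 0.565). ATF4 fell by 0.25 in SUDHL6 (adjusted p = 5.37e-07 by edgeR) and differed by 0.09 in SUDHL16 (adjusted p = 0.918), where its groups overlapped.

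**Figure D4:**
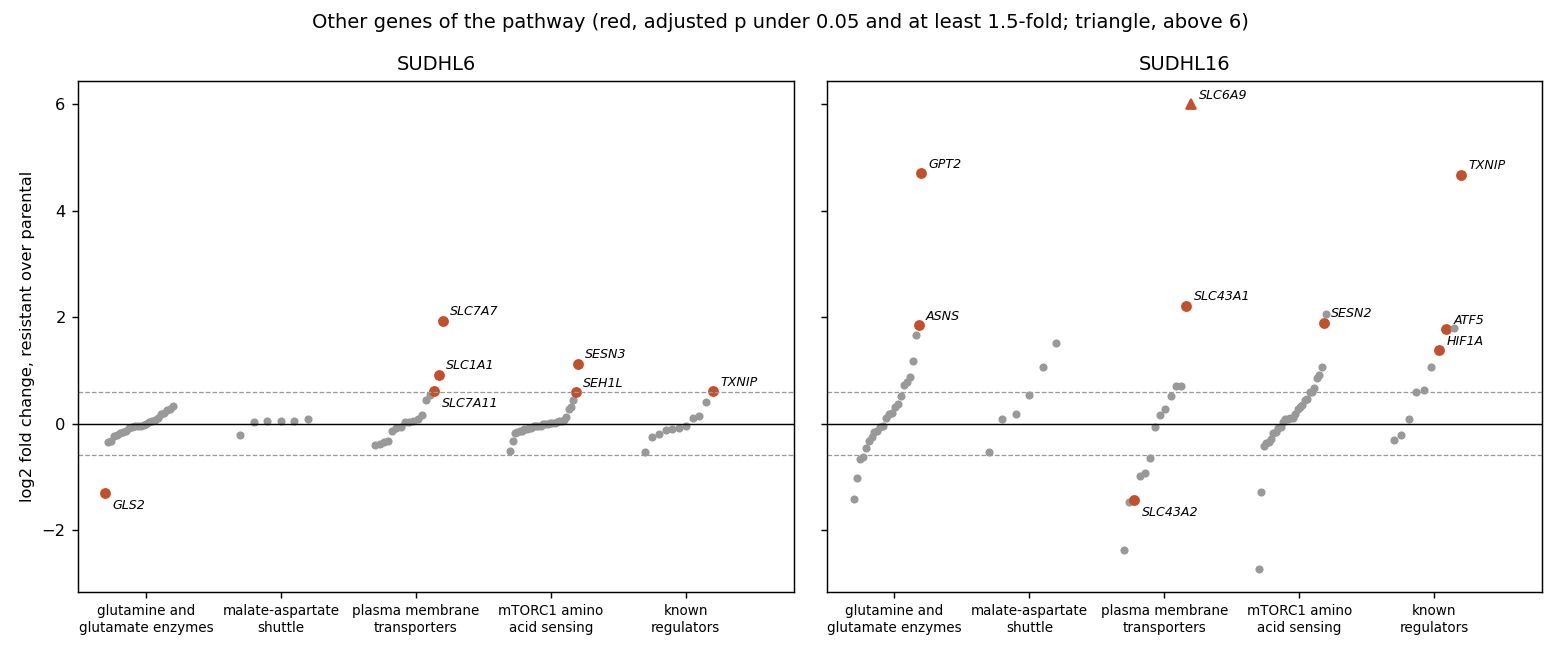
Log2 fold change of resistant over parental for the genes of the 5 lists tested in SUDHL6 (left) and SUDHL16 (right), sorted within each list, with called genes in red and named, dashed lines at 1.5-fold and a triangle for SLC6A9, which lies above the axis. Red points number 7 in SUDHL6 and 9 in SUDHL16, and TXNIP is red in both panels.

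The gene of the lists with the pattern most like each of the 9 was sought among 73 genes with at least 5 CPM in both lines, as the smallest root mean square difference of log2 CPM over the 12 libraries, centred on the parental mean of each line. SLC38A2 was nearest to PSAT1 (0.339), which makes phosphoserine with glutamate as the amino donor, and next to ASNS (0.339), against a median of 0.750 over the genes. PSAT1 measured 217 and 194 CPM in parental and resistant SUDHL6 cells and 65.2 ± 28.3 and 209 ± 87.7 CPM in SUDHL16 (SD, n = 3). SLC7A5 was nearest to PFAS (0.189), SLC3A2 to NPRL2 (0.138), SLC1A5 to E2F1 (0.182) and SLC38A1 to SLC25A13 (0.102). GLUD1 and GOT2 were both nearest to CTPS1 (0.126 and 0.124), and GOT1 to NPRL3 (0.147). No gene came near GLUL, whose closest was SLC43A2 at 3.18. All of these distances share the depth and composition of the same 12 libraries and carry no test.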

How the data were processed

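Total RNA of 12 libraries was sequenced. Per the study's methods and the submitters' processing notes, the authors trimmed reads with TrimGalore, aligned them to GRCh38 with HISAT2 and assembled transcripts with StringTie. They deposited, for each library, whole-number counts of reads per Ensembl gene, without normalization. The counting tool, its annotation and its strand setting are not given in the sources used here, so reads of overlapping genes and near-identical copies could have been split. GENCODE 44 named 56558 of the 60675 identifiers.

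Groups came from the source names in the labels. No pair of libraries was identical. Each line was fitted alone with edgeR 4.0.16 in R 4.3.3 (filterByExpr, TMM, quasi-likelihood test, Benjamini-Hochberg over all genes tested), and an interaction over 12 libraries compared the lines. Calls needed an adjusted p under 0.05 and 1.5-fold. Alternatives were DESeq2 1.42.0, upper-quartile scaling, library totals, no filter on low counts, voom (limma 3.58.1) with sample quality weights, protein-coding genes only, one fit of 12 libraries and each library left out. The edgeR step was tested on simulated counts. Of genes changed 1.5-fold, 54 of 68 passed in SUDHL6 and 0 of 68 in SUDHL16. At 3-fold these were 66 of 66 and 21 of 66, and at 16-fold 66 of 66 and 62 of 66. A gene that did not pass in SUDHL16 is therefore not shown to be unchanged. Genes left unchanged in the simulation also passed, 18 in SUDHL6 and 12 in SUDHL16, so a pass can be false.

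The 9 genes, the pathway lists and the tests were chosen with earlier results of these data known. Besides the 9 genes, the text names from each list up to 3 called genes per line with the smallest adjusted p, the gene with the nearest pattern (log2 CPM with a prior count of 2), and a few more, of which MDH2 and SLC25A11 were picked for their values; MYC and ATF4 are named as the regulators of the motifs, with their values already known. A few genes are not reported here by name, but remain in all fits and in the counts of the pathway lists. Counting intervals and the floor of 3 counts cover counting error only. Tables and plots were made in Python 3.11.15 (pandas 2.3.3, matplotlib 3.10.9).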

Additional observations from a re-analysis of the deposited data

Results flagged for a closer look

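For 4 of the 9 genes the change with resistance differed between SUDHL16 and SUDHL6 by the interaction test (adjusted p under 0.05, edgeR), against 7.16% of the 19621 genes tested. That test estimates 1 spread for both lines, although their own spreads were 0.0516 in SUDHL6 and 0.468 in SUDHL16. The change in SUDHL16 minus that in SUDHL6, on the log2 scale, was -8.75 for GLUL, 2.17 for SLC38A2, 1.26 for SLC7A5 and 1.01 for SLC3A2. The fitted value of GLUL depends on the prior count, and GLUL was near the floor in both SUDHL6 groups, where a fall could hardly be seen. SLC38A2 was lower in all 3 resistant than in all 3 parental libraries of SUDHL6 and higher in those of SUDHL16.

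The same test passed for 12 of the other pathway genes called in a line. All pathway genes called, whether or not they passed this test, numbered 7 in SUDHL6 and 9 in SUDHL16, with TXNIP in both. Over all 19621 genes tested the share was 7.16%. The genes counted were picked by their change within a line of these same data, so a high share was built in. The change was greater in SUDHL16 for SLC6A9 (12.56, with 0 reads in the parental SUDHL16 libraries, so the fitted value depends on the prior count), GPT2 (5.09), TXNIP (4.10), SLC43A1 (2.18), ASNS (1.96), SESN2 (1.90), ATF5 (1.70) and HIF1A (1.47). It was also greater for PSAT1 (1.83) and MDH2 (1.05), named for their pattern or value. It was lower in SUDHL16 for SLC7A7 (-3.40), SLC1A1 (-1.84), SESN3 (-1.46) and SLC43A2 (-0.97). With 1 library left out in turn, SESN3 failed the threshold in 11 of 12 fits, SLC1A1 in 9, SLC43A2 in 6 and HIF1A in 4.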

How the results depend on the processing

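The count of the 9 genes whose change differed between the lines was 4, and it stayed between 3 and 5 under DESeq2, 2 other scalings, no filter on low counts, a fit of protein-coding genes and each library left out. In SUDHL6 the 1 gene called, the 5 that passed and the 7 pathway genes called became 0, 0 and 1 in one fit of 12 libraries, which estimates 1 spread for both lines and tests 19621 genes. With a library left out they were 1, 4 to 6 and 6 to 7. In SUDHL16 the 3 genes called became 1 with library totals and 5 in one fit of 12 libraries, and ranged from 1 to 4 with a library left out, where GLUL was the 1. The 9 pathway genes called there became 17 with DESeq2, 27 in one fit of 12 libraries, 14 with protein-coding genes only and 26 with voom, and ranged from 4 to 17 with a library left out, 17 being the count without CE-26. The cause was not tested.

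Directions that turned did so at values near 0 with a library left out: GLUL in SUDHL6 ranged from -0.0082 to 0.42, GOT1 in SUDHL6 from -0.026 to 0.033, at -0.026 without CE-8 and -0.012 without CE-11, and the difference of GLUD1 between the lines from -0.34 to 0.043, at 0.043 without CE-27 and 0.022 without CE-30. Library totals moved the median of all genes in SUDHL16 by 0.13 (log2), from -0.02 to 0.11. Called genes in SUDHL16 numbered 833 by edgeR and 1775 by DESeq2, 60.4% and 52.7% of them higher. No paired analysis was possible because the labels give no replicate numbers. The lowest counts among the 9 genes were those of GLUL, at 12 to 26 reads in SUDHL6 and 0 to 6 in SUDHL16-resistant libraries.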
